A study of Mus musculus with 2 samples.

Results

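The position of Myc-Tag signal relative to the genes for the proteins of the cytosolic ribosome was described. It came from the called intervals of 1 Myc-Tag ChIP-seq library of a mouse T-cell lymphoma, made to map transgenic Dlx5. The genes were chosen by name: protein-coding genes whose RefSeq symbol is Rpl or Rps followed by a number, with an optional letter or a paralog suffix, together with Rplp0, Rplp1, Rplp2 and Rpsa. This rule matched 85 genes of 21887 nuclear protein-coding genes. One of them, Rps6kl1, belongs to the S6 kinase-like genes and does not encode a ribosomal protein. It was set aside, and its nearest summit was 85171 bp away. The other 84 genes were 53 of the large subunit (Rpl) and 31 of the small subunit (Rps). They lie on 19 chromosomes.

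The lymphoma arose in a C57BL/6 mouse carrying Lck-Dlx5. In this transgene the T-cell promoter of Lck drives a Myc-Tag form of the homeobox factor Dlx5 in thymocytes. An antibody to the Myc-Tag was used to recover DNA bound by that product. The control is 1 input library of the same lymphoma type, whose strain is labelled C57BL/7, and both libraries carry the transgene. The series holds no library without the tag, so binding by Dlx5 and other signal of the antibody cannot be told apart. The labels describe a primary tumor and an input, whereas the study's methods describe a lymphoma cell line of these mice and an IgG control. There was 1 library of each kind and no replicate, so no test between conditions was possible, and the values below describe these libraries.

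A ribosome joins a large subunit, which holds the peptidyl transferase center and the exit tunnel, with a small subunit, which decodes the messenger RNA, and most of their proteins are made from a single active gene each. Their messages typically begin with a C inside a run of pyrimidines, the terminal oligopyrimidine tract through which their translation follows mTOR activity. Growing T cells and T-cell leukemias make many ribosomes, and some of these genes are mutated or deleted in human T-cell acute lymphoblastic leukemia and in Diamond-Blackfan anemia.

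The promoters at the tallest summits are shown first, because the results turn on where the interval sat relative to the annotated start. Each runs 5′ to 3′ on the gene's own strand from 200 bases before the start to base 30 of the transcript, from RefSeq on GRCm38.p6, and capitals mark the longest run of C and T that touches the 20 bases on either side of the start. Rpl10a and Rpl35a had the tallest summits of the large subunit among genes that met both the gene-end limit and the same limit from the annotated start, with Rpl18 added after its value was seen. Rps12, Rps10 and Rps7 had the tallest of the small subunit. The last promoter, Rpl10, belongs to a gene with no summit.
Rpl10a, chr17:28328365-28328594, plus strand: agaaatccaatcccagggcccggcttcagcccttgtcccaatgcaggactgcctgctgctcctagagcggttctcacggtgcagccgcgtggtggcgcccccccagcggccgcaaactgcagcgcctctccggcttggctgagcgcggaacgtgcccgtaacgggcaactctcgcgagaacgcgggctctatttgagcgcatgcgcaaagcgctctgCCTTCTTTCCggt
Rpl35a, chr16:33056253-33056482, plus strand: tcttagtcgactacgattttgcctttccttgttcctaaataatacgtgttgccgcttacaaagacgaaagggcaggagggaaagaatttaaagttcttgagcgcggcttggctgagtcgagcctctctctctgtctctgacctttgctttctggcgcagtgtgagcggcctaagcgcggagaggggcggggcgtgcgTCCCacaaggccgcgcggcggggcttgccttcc
Rpl18, chr7:45717871-45718100, plus strand: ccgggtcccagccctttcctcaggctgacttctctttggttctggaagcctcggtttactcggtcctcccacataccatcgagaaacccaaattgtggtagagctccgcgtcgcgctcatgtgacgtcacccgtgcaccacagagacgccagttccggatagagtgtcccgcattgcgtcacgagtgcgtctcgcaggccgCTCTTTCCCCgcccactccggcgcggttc
Rps12, chr10:23787180-23787409, minus strand: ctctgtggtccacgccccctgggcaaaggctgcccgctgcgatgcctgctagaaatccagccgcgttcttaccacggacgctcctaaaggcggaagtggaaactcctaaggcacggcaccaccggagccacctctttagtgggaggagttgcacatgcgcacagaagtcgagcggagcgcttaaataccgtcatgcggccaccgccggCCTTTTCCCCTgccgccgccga
Rps10, chr17:27635215-27635444, minus strand: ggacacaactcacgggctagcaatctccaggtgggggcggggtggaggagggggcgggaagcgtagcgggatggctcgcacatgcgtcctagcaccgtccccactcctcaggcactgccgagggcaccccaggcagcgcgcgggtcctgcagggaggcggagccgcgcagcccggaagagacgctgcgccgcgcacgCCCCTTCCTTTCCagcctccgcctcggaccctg
Rps7, chr12:28635924-28636153, minus strand: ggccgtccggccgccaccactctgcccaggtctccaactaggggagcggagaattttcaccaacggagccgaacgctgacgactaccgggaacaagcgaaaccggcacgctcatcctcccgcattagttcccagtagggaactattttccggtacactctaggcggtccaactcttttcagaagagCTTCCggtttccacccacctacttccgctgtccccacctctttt
Rpl10, chrX:74270616-74270845, plus strand: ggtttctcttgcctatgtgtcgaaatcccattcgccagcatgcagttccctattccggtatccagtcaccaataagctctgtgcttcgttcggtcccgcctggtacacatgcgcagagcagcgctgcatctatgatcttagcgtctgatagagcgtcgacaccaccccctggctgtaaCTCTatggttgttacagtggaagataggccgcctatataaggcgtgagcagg

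The summit, the position of the highest signal of an interval, lay inside the printed stretch for Rpl35a, at 101 bp upstream of the start, for Rpl18, at 39 bp upstream, and for Rps12, at 151 bp upstream. For Rpl10a, Rps10 and Rps7 it lay beyond the printed end, at 75, 140 and 145 bp downstream of the start. The tract touched the start in some of these promoters and not in others. In Rps10 a run of 13 pyrimidines began 3 bases before the start. In Rps12 a run of 11 began only at base 9 of the annotated transcript, and in Rpl10, the gene without a summit, the longest run was 4 bases.

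A larger share of the ribosomal protein genes than of all coding genes carried a Myc-Tag summit at an end. A summit lay within 1 kb of a gene end for 43 of the 84 genes (51.2%, 95% Wilson interval 40.7 to 61.6%). The same was true of 2354 of the 21887 protein-coding genes (10.8%). Among the large subunit genes it was 25 of 53 (47.2%, 34.4 to 60.3%), and among the small subunit genes 18 of 31 (58.1%, 40.8 to 73.6%). The 2 subunits' intervals overlapped over most of their length, and the difference between the subunits was not tested. These intervals cover counting error over genes only, and genes of 1 library are not replicates of a condition.

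**Figure D1:**
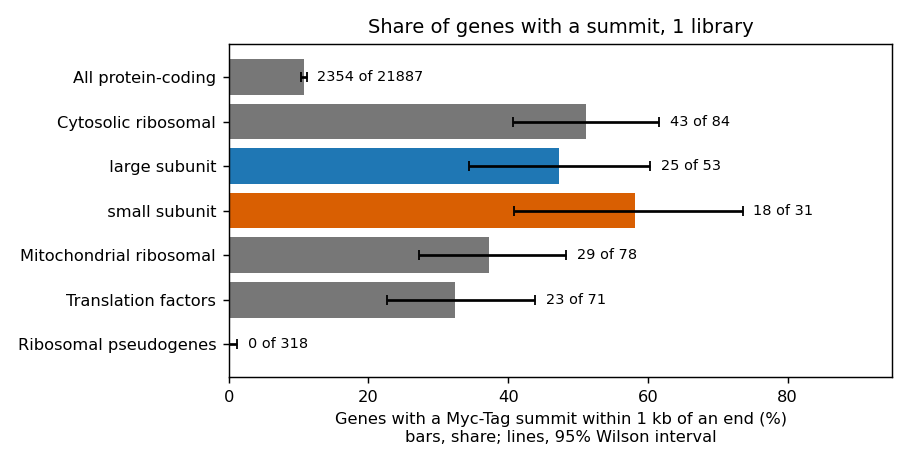
Share of genes in percent (horizontal axis) with a Myc-Tag summit within 1 kb of an end, in 1 library, for the ribosomal protein genes, their subunits, comparison gene groups and all protein-coding genes. Bars give the share and lines the 95% Wilson interval, and the large (47.2%) and small (58.1%) subunit bars both lie above that of all coding genes (10.8%).

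Groups of genes with related tasks lay between these values. Among the genes for mitochondrial ribosomal proteins, which serve the separate ribosome of that organelle, 29 of 78 had a summit (37.2%, 27.3 to 48.3%). There the order of subunits was the same, with 17 of 49 genes of the large subunit (34.7%) and 12 of 29 of the small subunit (41.4%). Among translation factor genes, those named Eif or Eef, 23 of 71 had one (32.4%, 22.7 to 43.9%). All 3 groups lay above the 10.8% of coding genes, and the differences among them were not tested. Coding genes up to the length of the longest ribosomal protein gene with a summit, 11774 bp, did not reach these shares. Of these 8797 genes, 753 had a summit (8.56%). Most ribosomal protein genes with a summit were far shorter than that limit, with a median length of 3352 bp and an upper quartile of 4320 bp (n = 43). The genes compared were therefore not matched for length, and a part of gene length in the shares was not tested.

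The 43 genes drew on 49 distinct intervals, 28 at the large subunit genes and 21 at the small. None of the 49 was also called in the input, a count that allows a share of up to 6.12%. The input held 28 intervals in all, and 28 Myc-Tag intervals overlapped an input interval. Only 2 of these Myc-Tag intervals were among the 3332 with a height of up to 30, the tallest at a ribosomal protein gene. The 49 intervals were of ordinary height for the library. Height is a whole-number score deposited with each summit, and how it was scaled is not stated. At the large subunit genes the median height was 17 (quartiles 15 and 20.2, range 10 to 28, n = 28) and at the small subunit genes 16 (15 and 19, 10 to 30, n = 21). All 3477 Myc-Tag summits had a median of 16 (13 and 19, 9 to 301), and the 2030 summits within 1 kb of any coding gene end had the same median and quartiles. A height of 19 or more, the upper quartile of all summits, was seen in 11 of the 28 large subunit intervals (39.3%, 23.6 to 57.6%) and in 7 of the 21 small subunit ones (33.3%, 17.2 to 54.6%), against 28% of all summits. The intervals at mitochondrial ribosomal protein genes had a median height of 19 (quartiles 16 and 24, n = 29) and those at translation factor genes 16.5 (13 and 19.2, n = 24). Width did not set the subunits apart either, with a median of 924 bp at the large subunit genes and 837 bp at the small, against 811 bp at coding gene ends in general.

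**Figure D2:**
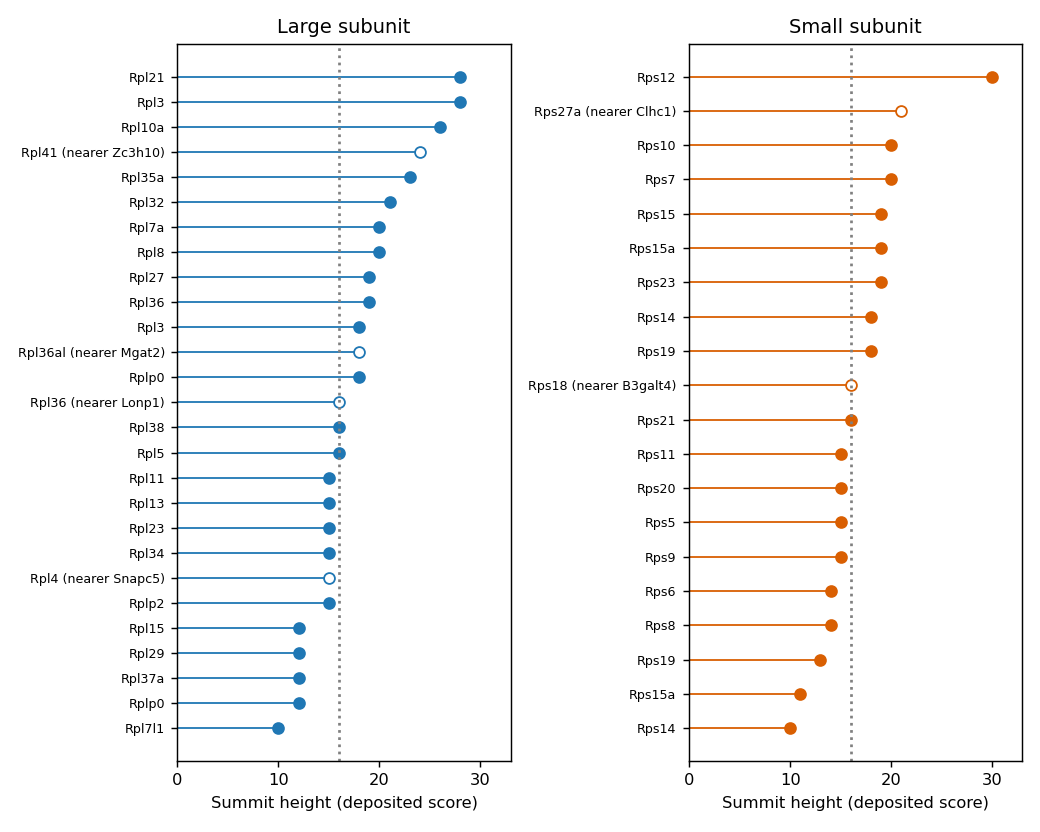
Height of each Myc-Tag summit within 1 kb of an end of a ribosomal protein gene (horizontal axis, deposited score), 1 line and point per interval, for the large subunit (left) and the small subunit (right), without the genes that are not reported here. Open points are summits nearer to an end of another gene, which is named, and the dotted line is the median of all Myc-Tag summits (16). Heights run from 10 to 28 on the left and from 10 to 30 on the right.

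The tallest summit of the small subunit genes, and of all members by the gene-end rule, was at Rps12. Its interval on chromosome 10, from 23786895 to 23787688, had a height of 30, and 145 of the 3477 summits (4.17%) were taller. In the large subunit the tallest were Rpl21, at 102 bp inside the gene (chromosome 5, from 146832693 to 146833545), and Rpl3, a protein next to the peptidyl transferase center, at 210 bp outside the gene (chromosome 15, from 80082784 to 80084147), both with a height of 28. Rpl10a followed with 26, Rpl41 with 24 and Rpl35a with 23. The summit at Rpl41, the shortest ribosomal protein, lay nearer to the neighboring gene Zc3h10. In the small subunit a step separated Rps12 from the rest. Rps27a, which is made as a fusion with ubiquitin, came next with 21, again nearer to an end of another gene, Clhc1, 46 bp away. Rps10 and Rps7 had 20, and Rps15, Rps15a and Rps23 had 19. At the low end were Rpl7l1 in the large subunit and the weaker of the 2 summits at Rps14 in the small, each with a height of 10, close to the lowest score in the list, 9.

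Genes of several roles were looked up by name. Of the stalk, the flexible arm of the large subunit that recruits translation factors, Rplp0 and Rplp2 had a summit and Rplp1 did not, its nearest being 31922 bp away. Rplp0, the base of the stalk, had one at 42 bp downstream of its start with a height of 12 and a taller one, of height 18, at 367 bp past its other end. The pair that carries the 5S ribosomal RNA into the large subunit, Rpl5 and Rpl11, both had one. These proteins also bind Mdm2, the ligase that degrades p53, when ribosome assembly fails. At Rpl5 the summit lay 48 bp upstream of the start (height 16), whereas at Rpl11 it lay 906 bp past the other end (height 15), where it only just met the 1 kb limit. Rps6, the small subunit protein phosphorylated by the S6 kinases downstream of mTOR, had a summit 167 bp downstream of its start with a height of 14. Rpsa, the laminin receptor protein of the small subunit, had none within 801 kb.

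Among genes mutated in Diamond-Blackfan anemia, a failure of red cell production, Rps19, Rps7, Rps10, Rpl5, Rpl11 and Rpl35a had a summit. Rps19, the most often mutated of them, had a summit 16 bp upstream of its start with a height of 18 and a second past its other end, at 941 bp, with a height of 13. For Rps24, Rps26 and Rpl26 the nearest summit was 1110, 70 and 104 kb away. Of the 4 listed genes mutated or deleted in human T-cell leukemia, Rpl5 and Rpl11 had a summit by the gene-end rule (50%, 15 to 85%). Rpl10 and Rpl22 did not. Of all ribosomal protein genes 51.2% had one, and of all coding genes 10.8%. Both disease lists are short, and neither was tested against these shares. At Rpl10, an X-linked gene whose protein is among the last to join the large subunit, the nearest summit was 1144 kb away. At Rpl22, a protein whose loss is known to alter T-cell development, the nearest gene end was 1420 bp from a summit of height 17. That summit lay 130 bp downstream of the annotated start, which is inside the gene's outer edge (chromosome 4, interval from 152325372 to 152326404).

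The gene-end rule missed 3 more genes in the same way, because RefSeq's gene span begins before the annotated start used for the promoter. At Rpl18 the annotated start lies 2604 bp inside the edge, and a summit of height 30 lay 39 bp upstream of it (chromosome 7, from 45717528 to 45718482). This matched the height at Rps12, so the 2 highest values fell 1 in each subunit. At Rpl19 a summit of height 11 lay 60 bp upstream, and at Rps27l one of height 17 lay 102 bp upstream. Counting a summit within 1 kb of an end or of an annotated start gave 47 of the 84 genes (56%, 45.3 to 66.1%), 28 of 53 in the large subunit (52.8%) and 19 of 31 in the small (61.3%), against 11.8% of all coding genes.

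The 41 genes without a summit within 1 kb of an end were 28 of the large subunit and 13 of the small. The nearest summit was within 10 kb for 11 of them and beyond 100 kb for 21, with a median of 101 kb and a range of 1.36 to 11259 kb. In the large subunit they were Rpl6, Rpl7, Rpl9, Rpl10, Rpl12, Rpl13a, Rpl14, Rpl17, Rpl18, Rpl19, Rpl22, Rpl23a, Rpl24, Rpl26, Rpl27a, Rpl28, Rpl30, Rpl31, Rpl35, Rpl36a, Rpl37, Rpl39 and Rplp1, and the paralogs Rpl3l, Rpl10l, Rpl22l1, Rpl32l and Rpl39l. In the small subunit they were Rps2, Rps3, Rps4x, Rps13, Rps16, Rps24, Rps25, Rps26, Rps27, Rps28, Rps29 and Rpsa, and the paralog Rps27l. Those not called may still hold signal below the calling threshold, which the interval list does not show. Just inside the limit were Rpl29 (732 bp), Rpl4 (862 bp) and Rpl11 (906 bp), and just outside it Rps27l (1360 bp), Rpl22 (1420 bp) and Rpl13a (1627 bp). None of the 4 members on the X chromosome (Rpl10, Rpl36a, Rpl39 and Rps4x) had a summit, where 9 of 966 coding genes did (0.932%).

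**Figure D3:**
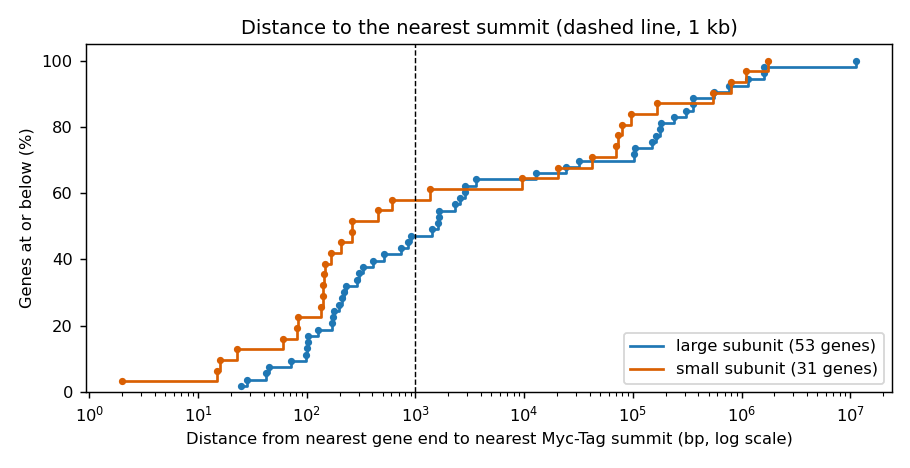
Cumulative share of genes in percent (vertical axis) whose nearest Myc-Tag summit lies at or below a given distance from the nearest gene end (horizontal axis, bp, log scale), for 53 large and 31 small subunit genes, 1 point per gene. The dashed line is 1 kb, where the large subunit curve stands at 47.2% and the small at 58.1%, and beyond it the genes spread out to 11259 kb.

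Paralogs are second copies, several of them with a narrower use. Among the 8 members whose symbol ends in the paralog suffix, 2 had a summit (25%, 7.15 to 59.1%), an interval that holds both the 10.8% of all coding genes and the 51.2% of the whole set. Without them the subunits stood at 23 of 46 genes (50%) and 18 of 30 (60%). The 7 listed parent and paralog pairs did not follow one pattern. The remaining paralog, Rpl32l, was not in that list. Its nearest summit was at 306 kb, and that of Rpl32 at 0.103 kb. Among the listed pairs, the ubiquitous copy Rpl3 had a summit at 0.21 kb, whereas the nearest to Rpl3l, the copy of heart and skeletal muscle, was at 178 kb. At Rpl7 and Rpl36a it was the paralog that had one: Rpl7l1 at 0.128 kb with Rpl7 at 553 kb, and Rpl36al, the autosomal copy, at 0.221 kb with the X-linked Rpl36a at 1624 kb. The summit at Rpl36al lay nearer to the neighboring gene Mgat2, 130 bp away. Neither copy had one for Rpl10 and Rpl10l, for Rpl39 and Rpl39l, for Rpl22 and Rpl22l1, or for Rps27 and Rps27l, although the summits at the inner starts of Rpl22 and Rps27l have been given above.

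Genes outside the naming rule that also encode ribosomal proteins were looked up by name. Rps3a1, of the small subunit, had a summit 68 bp upstream of its start with a height of 25. Rack1, a signaling scaffold that sits on the small subunit, had one 392 bp upstream of its start with a height of 23. Fau, which makes a small subunit protein fused to a ubiquitin-like one, had its nearest summit at 2018 bp. The heights at Rps3a1 and Rack1 were above those of all small subunit members by the rule except Rps12.

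The ribosomal protein genes have left many processed copies in the genome. Of 318 annotated pseudogenes with a ribosomal protein symbol, 0 had one inside the same limit, which allows a share of up to 0.943%. Of all annotated pseudogenes 25 of 10429 had one (0.24%), so the count of 0 is near the background. How reads that match several places were treated is not stated in the sources used here, and the intervals at the intron-bearing genes cannot show whether reads from exons were shared with the copies.

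For 64 of the 84 genes the RefSeq promoter table gave a strand and an annotated start, and the other 20, of which 14 had a summit, were left out of what follows. A summit lay within 1 kb of the annotated start for 28 of the 64 (43.8%, 32.3 to 55.9%), against 11.4% of the 17492 coding genes in that table. In the large subunit it was 17 of 41 genes (41.5%) and in the small 11 of 23 (47.8%). The nearest summits kept close to the start. Their offset ran from -221 bp, upstream, to 330 bp, downstream, with a median of 58 bp (quartiles -51 and 132), whereas those of all coding genes with a summit there ran from -998 to 999 bp, with quartiles of -137 and 164 bp. The extremes among the ribosomal protein genes were Rpl36al upstream and Rpl15 downstream. In the large subunit the median was 75 bp downstream and 11 of 17 summits (64.7%, 41.3 to 82.7%) lay 0 to 300 bp downstream, as at Rpl10a, Rpl13 (178 bp) and Rpl27 (198 bp). In the small subunit the median was -15 bp and 4 of 11 did so (36.4%, 15.2 to 64.6%): Rps15a (83 bp), Rps10, Rps7 and Rps6. The other 7 lay upstream, as at Rps21 (-9 bp), Rps23 (-82 bp) and Rps9 (-89 bp). The intervals of these shares overlapped, and 761 of the coding genes with a summit at the start (38.1%) had it 0 to 300 bp downstream. Of the 49 summits, 44 lay on multiples of 16 bp, so offsets are not exact to the base. At Rps21 (-9 bp), Rps15 (-15 bp) and Rps19 (-16 bp) the offset was no larger than this step. The side of the start is therefore uncertain at these genes and for the small subunit median. The difference in offset between the subunits was not tested.

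**Figure D4:**
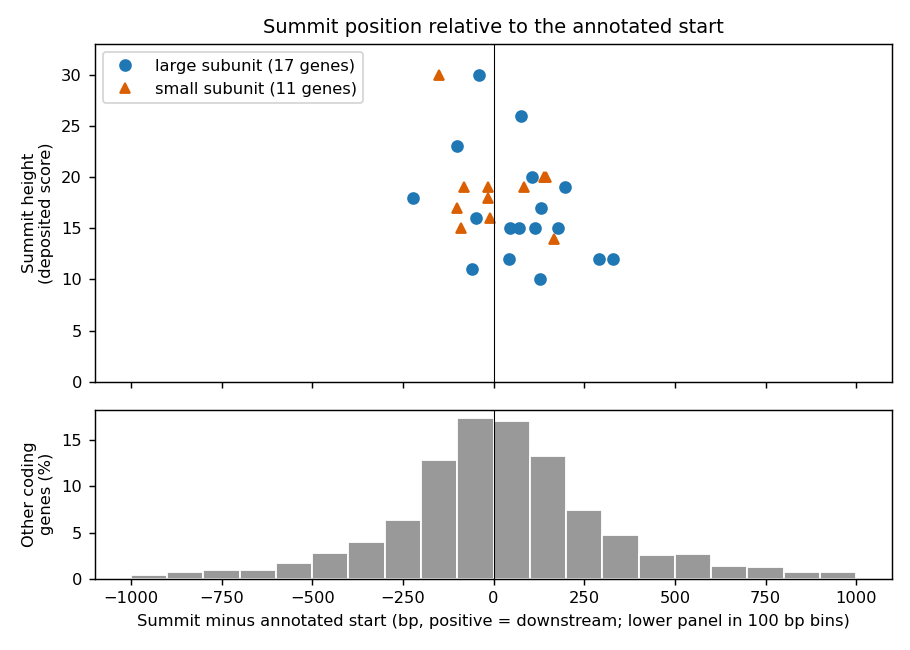
Upper panel: height (vertical axis, deposited score) against offset of the summit nearest to the annotated start (horizontal axis, bp, positive is downstream) for 17 large and 11 small subunit genes, 1 point per gene. Lower panel: the same offset for the other coding genes, as a percent of genes in 100 bp bins. The ribosomal protein gene summits run from -221 to 330 bp. Those of the other genes, which are many more, reach almost 1 kb on both sides, and a range widens with the number of genes.

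The end of a ribosomal protein gene opposite to its start also carried summits. Of the 64 genes, 8 had a summit within 1 kb of that other end (12.5%, 6.47 to 22.8%), against 156 of 17492 coding genes (0.892%, 0.763 to 1.04%). At Rpl11, Rpl38, Rpl4, Rpl41 and Rps18 there was a summit at this end and none at the start, and at Rplp0, Rps15a and Rps19 there was one at both. For 3 of the 8 the annotated start of a neighboring gene was close: Snapc5 127 bp from the summit at Rpl4, Zc3h10 62 bp from that at Rpl41 and B3galt4 96 bp from that at Rps18. The remaining 5 summits, 906 bp past the end of Rpl11, 515 bp past Rpl38, 367 bp past Rplp0, 566 bp past Rps15a and 941 bp past Rps19, had the member itself as the nearest coding gene. The heights of these 5 were 15, 16, 18, 11 and 13, all below the upper quartile of 19. At Rplp0 the summit past the end was the taller of that gene's pair, whereas at Rps15a (19 at the start) and Rps19 it was the lower.

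Among all 84 genes, 6 had 2 summits inside the limit: Rpl3, Rpl36, Rplp0, Rps14, Rps15a and Rps19. The share of all coding genes with 2 summits is not given, so this count has no background beside it. At Rpl3 they lay 210 bp outside one end, with a height of 28, and 789 bp outside the other, with a height of 18. At Rpl36 a summit of height 19 lay 854 bp inside the gene and one of height 16 lay 410 bp outside it, nearer to Lonp1, the neighboring gene for a mitochondrial protease. At Rps14, the gene whose loss underlies the anemia of the 5q deletion syndrome, a summit of height 18 lay 207 bp outside the gene and one of height 10 lay 732 bp inside it. For 5 genes (Rpl4, Rpl36al, Rpl41, Rps18 and Rps27a) every summit within reach was nearer to an end of another coding gene. Counting a summit only for its nearest gene left 38 of the 84 (45.2%), against 9.07% of all coding genes. Of all coding genes with another coding gene end within 1 kb, 19.3% had a summit (18.3 to 20.4%), and of those without such a neighbor 7.93% did (7.53 to 8.36%). Among the small subunit genes with no other coding gene end within 1 kb, 14 of 23 had a summit (60.9%, 40.8 to 77.8%), and among those with such a neighbor 4 of 8 (50%). In the large subunit these were 13 of 30 (43.3%, 27.4 to 60.8%) and 12 of 23 (52.2%).

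The promoters, from 250 bases before the start to base 50, were searched on both strands for short motifs, each of which is a match of letters and not a site. TAATT, the core that homeodomain proteins such as Dlx5 are known to bind, was in 13 of the 64 ribosomal protein promoters (20.3%). It was in 24% of all 17492 promoters and in 14.2% of all promoters with a summit. Among the 64, it was in 5 of the 28 with a summit at the start (17.9%), at Rpl13, Rpl19, Rpl23, Rps15a and Rps9, and in 8 of the 36 without (22.2%). None of the 7 promoters printed above held it. The longer TAATTG, which contains TAATT, was in 1 of the 28 and 1 of the 36. It was in 7.05% of all promoters and in 4.61% of all promoters with a summit. So in the ribosomal protein promoters the letters of the homeodomain core were no more frequent in this window with a summit than without one. Of the 28 summits, 14 lay inside the window.

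The other motifs differed in how often they occurred. CGGAAG, the core of ETS factors, was in 41 of 64 (64.1%), against 21.6% of all promoters and 41.5% of all promoters with a summit. In the ribosomal protein promoters it was in 15 of the 28 with a summit (53.6%) and in 26 of the 36 without (72.2%). CCGGAA, which overlaps CGGAAG where the bases run on, was in 50% of the 64, against 19.2% of all promoters and 37.2% of all promoters with a summit. GCCAT, part of the YY1 motif, was in 10 of the 28 with a summit (35.7%) and 26 of the 36 without (72.2%). It was in 39.2% of all promoters and in 41% of all promoters with a summit. GGGCGG, the GC box of Sp1, was in 67.9% of those with a summit and 52.8% of those without, against 46.5% of all promoters and 70.3% of all promoters with a summit. CACGTG, the E-box bound by Myc and Max, was in 5 of 64 (7.81%), against 7.96% of all promoters and 10.8% of all promoters with a summit. By subunit it was in 5 of 41 promoters of the large and 0 of 23 of the small. These counts are small, and the difference was not tested. TATAAA was in 1 of the 28 and 6 of the 36, against 13.3% of all promoters and 6.37% of all promoters with a summit. Median GC content was 58% in ribosomal protein promoters with a summit and 56.5% in those without, against 63% in all promoters with a summit and 56.3% in all promoters. With respect to CpG pairs, the 28 had a median of 22 and the 36 one of 20.5 in 300 bases, against 25 for all promoters with a summit and 13 for all promoters.

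The pyrimidine tract that marks this gene family was as frequent with a summit as without. A run of 8 or more C and T touching the 20 bases on either side of the start was in 33 of 64 promoters (51.6%), against 20.4% of all promoters. It was in 15 of the 28 with a summit (53.6%) and in 18 of the 36 without (50%), and in 19.9% of all promoters with a summit. By subunit it was in 22 of 41 promoters (53.7%) of the large and in 11 of 23 (47.8%) of the small. A run of this length that covered the start base itself was in 17 of 64 (26.6%) against 3.48%. The start base was C in 29.7% of the 64 and in 13.6% of all promoters.

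**Figure D5:**
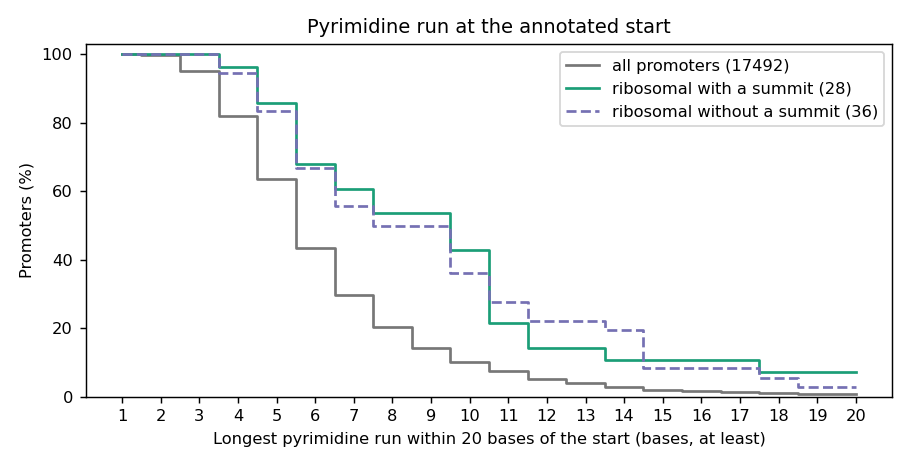
Share of promoters in percent (vertical axis) whose longest run of C and T touching the 20 bases on either side of the annotated start has at least the length on the horizontal axis, for all 17492 promoters and for ribosomal protein promoters with (28) and without (36) a Myc-Tag summit within 1 kb of the start. At 8 bases the lines stand at 20.4, 53.6 and 50%.

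The lymphoma label was set beside marker genes of cell types, although an interval list shows called signal near a gene and not its expression. Of 9 T-cell markers, Cd3g and Cd3d had a summit inside the 1 kb limit and Lck had an interval inside the gene. None of 6 markers of B cells, myeloid cells, epithelium or stroma had either. At 10.8% of all coding genes, these lists are too short for either count to bear on the label, and no background was computed for intervals inside genes. The endogenous Lck gene and the promoter of the transgene share sequence, and the list does not tell which of them gave the interval at Lck.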

How the data were processed

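The series holds 1 Myc-Tag ChIP library and 1 input library. The study's methods give Active Motif, an Illumina GA II and peak calling by MACS p-value. The submitters' processing notes name BWA and mm9, whereas the published browser views of these tracks are drawn on mm10. Against the mm10 coordinates of RefSeq GRCm38.p6, 2030 of 3477 summits (58.4%) lay within 1 kb of a coding gene end, and mm10 was used. The authors deposited browser tracks: intervals, and for each summit a height, a whole-number score without a stated normalization. Their list of active regions holds the same 3477 intervals. The depth is unknown, since no read totals were used here, and heights have no interval. The calling threshold is not given in the sources used here.

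A gene was counted when a summit lay within 1000 bp of either end of its RefSeq span. Strand and annotated starts came from the RefSeq promoter table. Intervals of the same library overlapping by at least 1 bp with an input interval counted as also called in the input. Shares have 95% Wilson intervals, and the limit for a count of 0 is 3 counts of the total. Both cover counting error only. With 1 library a group no p-value was computed. The members and all lists were chosen with earlier results of these data known. The rule for naming covered the 6 tallest summits of each subunit, genes near the 1 kb limit and genes with 2 summits or a nearer neighbor. It also covered the listed role, disease and paralog genes. Other members were named after their values were seen. Results for some of the genes are not reported here by name. The planned pair Rps4x and Rps4l was not analysed here. The alternatives were other distances, height thresholds, gene assignments and gene sets. Counts were made in pandas 2.3.3 and numpy 2.4.6 under Python 3.11.15, intervals in scipy 1.17.1 and figures in matplotlib 3.10.9, and the counting was tested on simulated data.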

Additional observations from a re-analysis of the deposited data

How the results depend on the processing

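Of 40 alternative values, 33 stayed inside the 95% interval of the value reported and 7 moved outside it. The share of ribosomal protein genes with a summit fell when low summits were left out: at a height of 16 or more, the median, it was 32.1% of all, 28.3% of large and 38.7% of small subunit genes, against 5.68% of coding genes. At 19 or more, the upper quartile, it was 21.4, 20.8 and 22.6%, against 3.08%. By construction these settings count fewer summits, and the share stayed above that of coding genes in each. The median distance to the nearest end was 146 bp over 43 genes. The alternative, the median distance to the annotated start, was 102 bp over 28 genes. It is a different measure, and 4 of the 28 genes did not meet the gene-end rule. With limits of 500 bp and 2 kb the share was 45.2 and 57.1%, against 9.04 and 12.3%. Small subunit genes had the higher share in each of these settings, but the settings recount the same genes and the difference was not tested. Among genes with another coding gene end within 1 kb the order was reversed, at 52.2% of large and 50% of small subunit genes. Median heights ran from 16 to 18 in both subunits. Adding Rps6kl1 and counting inner starts were chosen after seeing the data. No replicate could be left out. No paired analysis was possible because the Myc-Tag and input groups hold a single library apiece. Unknown depth limits what the absence of an interval shows.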

Other observations

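Many ribosomal protein genes host small nucleolar RNAs, which guide the modification of ribosomal RNA, in their introns. Of the 29 members that host at least 1 annotated snoRNA, 14 had a Myc-Tag summit within 1 kb of an end (48.3%, 95% Wilson interval 31.4 to 65.6%), and of the 55 that host none, 29 did (52.7%, 39.8 to 65.3%). Among the 343 other coding genes that host a snoRNA, 68 had a summit (19.8%, 16 to 24.4%).

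The members are unevenly spread over the genome. Chromosome 7 holds 14 of them, of which 7 had a summit (50%, 26.8 to 73.2%), where 146 of the 2030 coding genes of that chromosome did (7.19%). On chromosome 15, where 165 of 776 coding genes had a summit (21.3%), 2 of the 4 members did, Rpl3 and Rpl8. Leaving this chromosome out changed the median height at the large subunit genes from 17 to 16.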
